A study of Arabidopsis thaliana with 48 samples.

Results

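The miRNAs described here are those listed among the 22 nt reads of total small RNA from closed flower buds of Arabidopsis thaliana, in 2 mutants of the arginine methyltransferase gene PRMT5 and in wild type. A miRNA was a member if at least 1 read of it stood in the 22 nt table of any of the 6 total small RNA libraries, and a missing value was taken as 0 reads. This gave 45 members among the 428 annotated miRNAs in the tables. The groups were the allele atprmt5-2 (2 libraries), the allele atprmt5-6 (2 libraries) and Col-0 wild type (2 libraries). All plants were grown on soil in long days without treatment, and the libraries of a genotype are described as biological duplicates. The lesion in each allele, the age of the plants and whether buds of several plants were pooled are not stated in the labels. The study asked how loss of this enzyme bears on small RNA accumulation and on loading into AGO1, the main slicing Argonaute of plants.

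PRMT5 places symmetric dimethyl marks on arginines of its substrates, among them splicing factors and Argonaute proteins. Most plant miRNAs are cut by the Dicer protein DCL1 to 21 nt, and a hairpin with an unpaired base in the arm that becomes the miRNA can yield 22 nt instead. A 22 nt miRNA loaded into AGO1 is known for its ability to start secondary siRNA production at the transcript it targets. There the polymerase RDR6 makes the transcript double-stranded, and Dicer proteins then cut it in phased steps into phasiRNAs, called tasiRNAs at the TAS loci.

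The 22 nt tables held few miRNA reads. The authors' values were RPM, reads scaled to a common library size, and the values of each library were whole multiples of the worth of 1 read. The numbers of reads and the denominators could thus be recovered. The denominators were 871085 and 873678 reads in atprmt5-2, 1024820 and 995788 in atprmt5-6, and 538878 and 1106045 in wild type, each for replicates 1 and 2. They were taken as the number of 22 nt reads, so RPM here has the 22 nt reads of a library as its base and is not on the scale of the 21 nt tables. Annotated miRNAs had 770 and 357 of these reads in atprmt5-2, 573 and 402 in atprmt5-6, and 307 and 633 in wild type, 3042 in all. The limit that a count of 0 allows, 3 reads, stood for 2.71 to 5.57 RPM, with the highest limit in wild-type replicate 1. Such limits, and the intervals of shares below, cover counting error only.

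The members were set apart by the length of their RefSeq mature form. RefSeq (TAIR10.1) matched 427 of the 428 names. Of the 48 miRNAs annotated at 22 nt, 38 were listed, with 2744 reads. Of the 5 annotated at 23 nt, 3 were listed with 25 reads, and of the 11 annotated at 24 nt, 4 were listed with 273 reads. None of the 324 annotated at 21 nt, the 38 at 20 nt or the 1 at 19 nt had a 22 nt read, although 234 of the 324 were listed among the 21 nt reads. The 22 nt tables therefore listed no form longer than the annotated one. The rule by which reads were assigned to miRNAs is not given, so whether a longer form could be listed is not known. Whether the buds held 21 nt miRNAs lengthened by 1 base was thus not tested. The plot of miRNAs by annotated length shows the step between 21 and 22 nt.

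**Figure D1:**
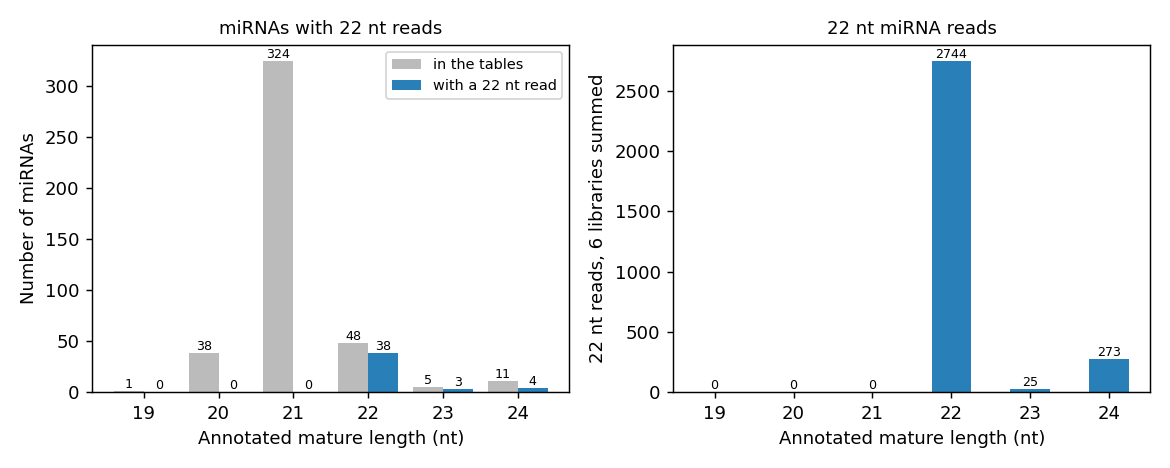
Number of annotated miRNAs by RefSeq mature length in nt, with the number listed among the 22 nt reads of the 6 total small RNA libraries. None of the 324 miRNAs of 21 nt was listed, against 38 of the 48 of 22 nt.

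The 45 members had 37 distinct sequences and 37 distinct seeds, so a seed (bases 2 to 8, which nucleate target pairing) was shared only by members with the same whole sequence. The sequences below are those that the results turn on, from RefSeq in 5′ to 3′ direction, with the seed in capitals.
miR173-5p: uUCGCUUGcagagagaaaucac
miR393a-5p and miR393b-5p: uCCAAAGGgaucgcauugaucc
miR472-3p: uUUUUCCUacuccgcccauacc
miR856: uAAUCCUAccaauaacuucagc
miR845b: uCGCUCUGauaccaaauugaug
miR163: uUGAAGAGgacuuggaacuucgau
miR167d: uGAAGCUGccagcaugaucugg
The first 4 lines are guides of the trigger list described below, miR845b and miR163 had lower values in mutant libraries, and miR167d took the most 22 nt reads. All of these begin with U, the base that AGO1 prefers, as did 26 of the 37 distinct sequences.

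Their genes are spread over the genome. The mature miR173-5p lies at chr3:8236161-8236182 (plus strand) and the 2 copies of miR393-5p at chr2:16652111-16652132 and chr3:20691657-20691678 (both plus strand). The mature miR856 lies at chr1:11957487-11957508 (plus strand), miR845b at chr4:12214086-12214107 (minus strand), miR163 at chr1:24884359-24884382 (plus strand) and miR167d at chr1:11137556-11137577 (plus strand), none of them within a protein-coding gene. The mature miR472-3p lies at chr1:4182143-4182164 (minus strand), in an exon of AT1G12290 outside its coding sequence. Of all 45 members, 33 overlapped no protein-coding gene, 7 lay in introns and 5 in exons outside the coding sequence, each on the strand of that gene.

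Between members of different families, 1 pair shared a long run. A run of 15 bases, in capitals, stood in both miR845b and miR829-3p.1, while the next longest run among the 968 pairs of different families had 8 bases.
miR845b: ucGCUCUGAUACCAAAUugaug
miR829-3p.1: aGCUCUGAUACCAAAUgauggaau
The miR845 family is known from pollen and pairs with the primer-binding site, complementary to a tRNA end, of LTR retrotransposons. Of miR829-3p.1 the 22 nt tables held 1 read, in atprmt5-6 replicate 1, so no values of the pair can be compared.

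Differences between genotypes were tested for the 14 members with a mean of at least 10 RPM over the 6 libraries. They held 2767 of the 3042 reads, 91.0%. The test was limma on log2(RPM + 5) with Benjamini-Hochberg adjustment and a threshold of 0.05, and fold changes on this scale understate those of low members. No member passed in atprmt5-2 or in atprmt5-6 against wild type, which share the same 2 wild-type libraries, nor in atprmt5-6 against atprmt5-2. The share called was thus 0% in each direction of each comparison. At an unadjusted limma p under 0.05 there were 2 members in atprmt5-2, miR856 and miR845b, and 1 in atprmt5-6, miR472-3p, all with lower values than in wild type, and 0 between the alleles. The smallest adjusted p by limma was 0.162 in atprmt5-2, 0.249 in atprmt5-6 and 0.729 between the alleles. On the recovered reads, edgeR's quasi-likelihood test with the authors' denominators also called 0 against wild type, with 2 members in each allele at an unadjusted p under 0.05. With TMM factors it called 0 (4 members in atprmt5-2 and 2 in atprmt5-6 at that p), and so did DESeq2 (2 and 1 members). The 95% interval of a fold change, before adjustment, reached a median of 0.95 to either side on the log2 scale over the 14. In bulk RNA of buds, fewer cells of a type and less RNA per cell cannot be told apart.

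Over the 14, atprmt5-2 had a median log2 fold change of 0.20, with 8 positive and 6 negative values, and atprmt5-6 one of −0.19, with 5 positive and 9 negative values. Centring each library on the median of the same 14, in place of scaling to all 22 nt reads, moved the median in atprmt5-6 to 0.23. Such centring takes out any shift common to the 14, so that median does not measure one. The plot of values by library and the plot of fold changes show all 14.

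**Figure D2:**
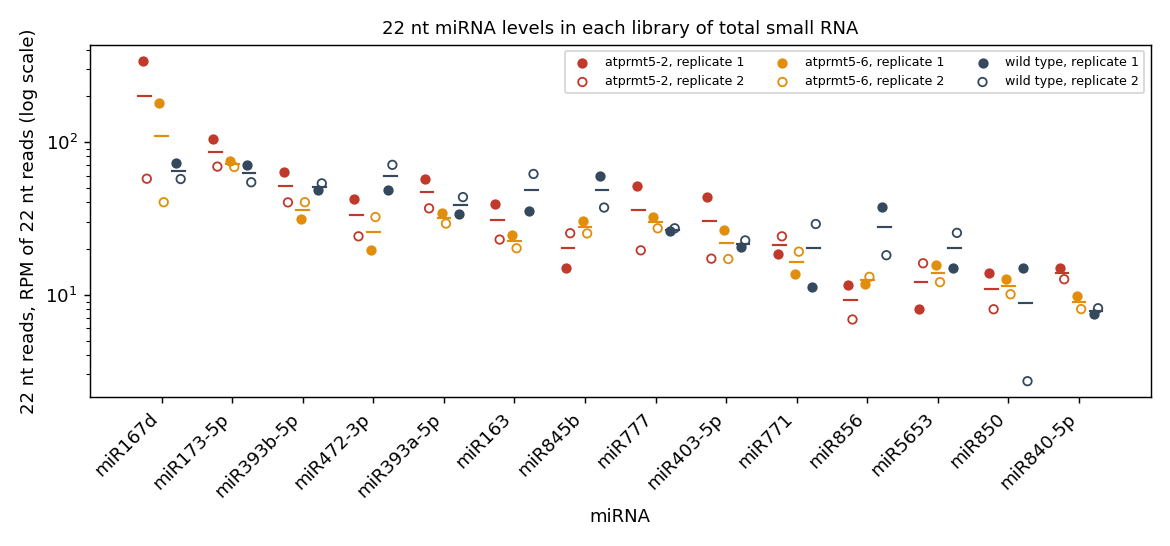
RPM (base: 22 nt reads; log axis) of the 14 tested miRNAs in each of the 6 libraries, with atprmt5-2 and atprmt5-6 left of wild type. For miR856, miR845b and miR472-3p all 4 mutant points lie under both wild-type points, and miR167d stands highest in replicate 1 of each allele.

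**Figure D3:**
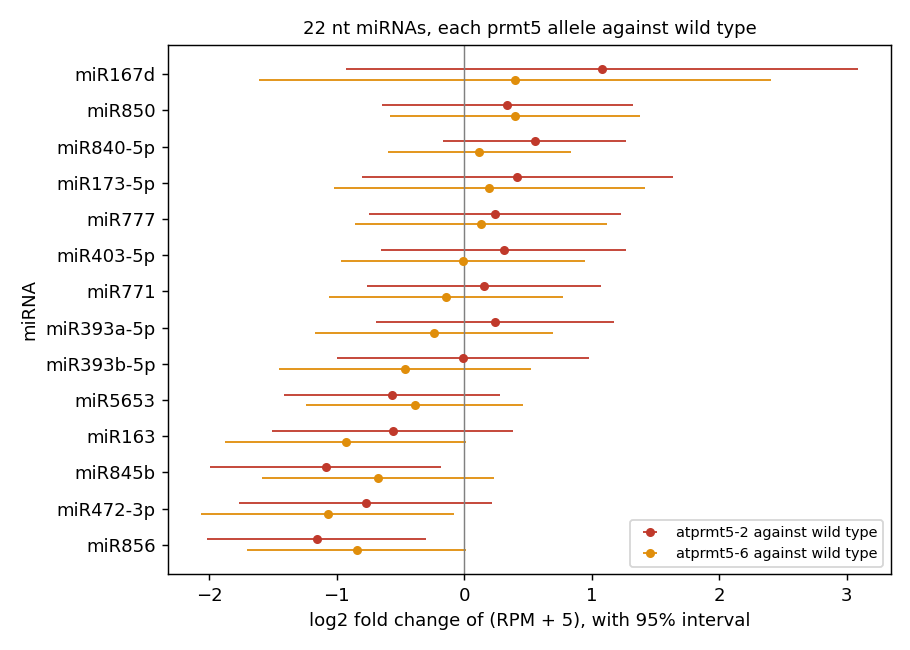
Log2 fold change against wild type, on the log2(RPM + 5) scale, for atprmt5-2 and atprmt5-6, with 95% intervals from limma (2 libraries a genotype). Intervals of miR856 and miR845b in atprmt5-2 and of miR472-3p in atprmt5-6 lie under 0 before adjustment, and none passed after it.

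Of the guides on the list of phasiRNA triggers, 15 stood in the tables and 5 were listed at 22 nt, and all 5 were tested. None was called in either allele. Over them atprmt5-2 had a median log2 fold change of −0.01 and atprmt5-6 of −0.46, against 0.20 and −0.19 over all 14. Both medians of the 5 are the values of miR393b-5p, which has the same sequence as miR393a-5p, so they do not stand for the group. The 5 did not lie on 1 side of 0, as the values below show.

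miR173-5p cuts the TAS1 and TAS2 transcripts and so starts the tasiRNAs made from them. It had 103 and 68.7 RPM in atprmt5-2, 75.1 and 68.3 RPM in atprmt5-6, and 70.5 and 54.2 RPM in wild type. The highest value was that of atprmt5-2 replicate 1, the lowest that of wild-type replicate 2, and each allele overlapped wild type. Against wild type, atprmt5-2 had a log2 fold change of 0.42 ± 0.56 (SE; limma adjusted p = 0.690) and atprmt5-6 one of 0.20 ± 0.56 (SE; limma adjusted p = 0.834). In atprmt5-2 the 95% interval was −0.80 to 1.64, in atprmt5-6 −1.02 to 1.42.

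miR393 targets the TIR1 and AFB auxin receptors, whose transcripts give rise to phasiRNAs. Its 2 copies have the same mature sequence, so their reads cannot be told apart, and 46.2% of them were assigned to copy a. The 2 copies together had 121 and 76.7 RPM in atprmt5-2, 65.4 and 69.3 RPM in atprmt5-6, and 81.7 and 96.7 RPM in wild type. Atprmt5-2 overlapped wild type, while both atprmt5-6 libraries were below both wild-type libraries. As listed, miR393a-5p had log2 fold changes of 0.24 in atprmt5-2 and −0.24 in atprmt5-6 (SE 0.43), and miR393b-5p of −0.01 and −0.46 (SE 0.45), and none passed limma's threshold. Centring on the median miRNA turned the sign of miR393a-5p in atprmt5-6 (0.18) and of miR393b-5p in atprmt5-2 (0.09).

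miR472-3p targets transcripts of NLR immune receptors, and phasiRNAs form on them. It had 42.5 and 24.0 RPM in atprmt5-2, 19.5 and 32.1 RPM in atprmt5-6, and 48.2 and 70.5 RPM in wild type. All 4 mutant libraries were below both wild-type libraries, the highest mutant value being near the lower wild-type value. Against wild type, atprmt5-2 had a log2 fold change of −0.77 ± 0.45 (SE; limma adjusted p = 0.416) and atprmt5-6 one of −1.07 ± 0.45 (SE; limma adjusted p = 0.249). Its interval in atprmt5-6 ran from −2.06 to −0.08.

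miR856, the other listed trigger, was at lower levels. It had 11.5 and 6.87 RPM in atprmt5-2, 11.7 and 13.1 RPM in atprmt5-6, and 37.1 and 18.1 RPM in wild type. The mutant values, each from 6 to 13 reads, lay under both wild-type values, each from 20 reads. The 2 wild-type libraries thus had equal reads and differed through their denominators, of which that of replicate 1 is the smallest of the 6. Against wild type, atprmt5-2 had a log2 fold change of −1.16 ± 0.39 (SE; limma adjusted p = 0.162) and atprmt5-6 one of −0.84 ± 0.39 (SE; limma adjusted p = 0.249). Without wild-type replicate 2 the value in atprmt5-2 passed (−1.59, limma adjusted p = 0.0117), and without wild-type replicate 1 it did not (−0.72, limma adjusted p = 0.400).

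miR845b is the pollen miRNA of the shared run above, and 1 of 2 pollen-associated names, the other not being listed here. It had 14.9 and 25.2 RPM in atprmt5-2, 30.2 and 25.1 RPM in atprmt5-6, and 59.4 and 37.1 RPM in wild type. All 4 mutant libraries were below both wild-type libraries. Against wild type, atprmt5-2 had a log2 fold change of −1.09 ± 0.41 (SE; limma adjusted p = 0.162) and atprmt5-6 one of −0.68 ± 0.41 (SE; limma adjusted p = 0.453). With AGO1 immunoprecipitates added to the fit, 12 libraries in all, miR845b and miR856 passed in atprmt5-2 at the same fold changes (limma adjusted p = 0.0481 for each). The contrast still compared the total libraries alone, and the added libraries entered only the estimate of spread.

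These 3, miR856, miR845b and miR472-3p, were the only tested members with all 4 mutant libraries on 1 side of both wild-type libraries, and 0 members had all 4 above. Of the 14, 0% were called. In atprmt5-2 alone 3 of 14 members lay below and 1, miR840-5p, above both wild-type values, and in atprmt5-6 alone 5 lay below and 0 above. The additional 2 in atprmt5-6 were miR163 and miR393b-5p. The copy miR393a-5p, of the same sequence as miR393b-5p, overlapped wild type there, while the 2 copies summed lay below.

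miR163 and miR5653 are the tested members annotated at 24 nt, so their 22 nt reads are shorter than the annotated form. miR163 targets transcripts of methyltransferases that use S-adenosylmethionine. It had 39.0 and 22.9 RPM in atprmt5-2, 24.4 and 20.1 RPM in atprmt5-6, and 35.3 and 61.5 RPM in wild type. Atprmt5-2 replicate 1 was above wild-type replicate 1, and the other 3 mutant libraries were below both wild-type libraries. Against wild type, atprmt5-2 had a log2 fold change of −0.56 ± 0.43 (SE; limma adjusted p = 0.509) and atprmt5-6 one of −0.93 ± 0.43 (SE; limma adjusted p = 0.249). miR5653 ranged from 8.04 to 25.3 RPM, with log2 fold changes of −0.57 in atprmt5-2 and −0.39 in atprmt5-6 (SE 0.39).

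miR167d, of the family that targets the auxin response factors ARF6 and ARF8 of flower maturation, was the most abundant member and had the largest SE of the 14. It had 339 and 57.2 RPM in atprmt5-2, 179 and 40.2 RPM in atprmt5-6, and 72.4 and 57.0 RPM in wild type. Replicate 1 of each allele was above both wild-type libraries, and replicate 2 of atprmt5-6 was below both, so the spread within an allele exceeded the difference from wild type. Against wild type, atprmt5-2 had a log2 fold change of 1.08 ± 0.91 (SE; limma adjusted p = 0.525) and atprmt5-6 one of 0.40 ± 0.91 (SE; limma adjusted p = 0.834). Without replicate 1 of the allele its sign turned, to −0.15 in atprmt5-2 and −0.62 in atprmt5-6. Its first 20 bases are also those of miR167a-5p and miR167b, annotated at 21 nt, and no other tested member shares 12 or more 5′ bases with another miRNA outside its own sequence.

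miR167d carried much of the summed signal. It made up 38.3% and 14.0% of the 22 nt miRNA reads in atprmt5-2, 31.9% and 9.95% in atprmt5-6, and 12.7% and 9.95% in wild type. The other members together had 545 and 351 RPM in atprmt5-2, 381 and 364 RPM in atprmt5-6, and 497 and 515 RPM in wild type. In replicate 1 of the alleles 22 nt reads were also a smaller part of the 21 to 24 nt reads, 8.65% in atprmt5-2 and 9.91% in atprmt5-6, against 13.1% and 13.7% in replicate 2. Wild type had the same order, at 10.7% and 12.1%. The 21 nt reads of miR167d, before scaling, were also more in replicate 1 of each allele. They were 181 and 39 in atprmt5-2, 151 and 41 in atprmt5-6, and 44 and 91 in wild type. Scaled to the 21 to 24 nt reads the log2 fold changes of miR167d were 0.98 in atprmt5-2 and 0.42 in atprmt5-6, close to those above.

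**Figure D4:**
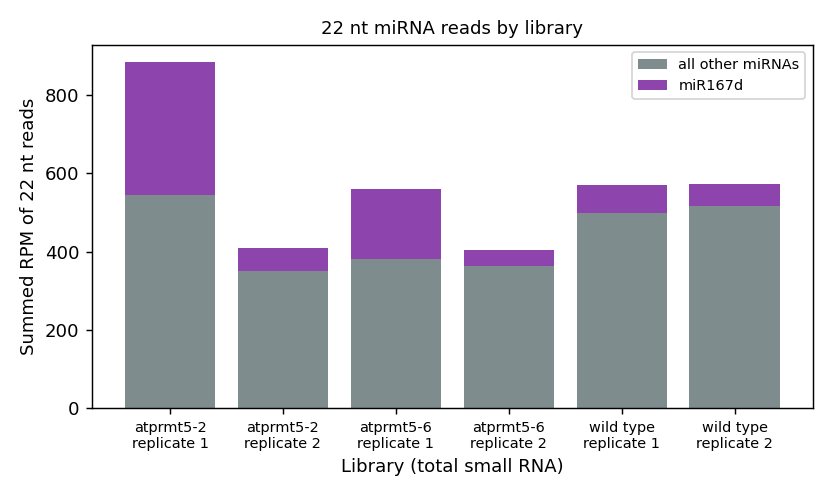
Stacked bars of the summed RPM of miR167d and of the other 22 nt miRNAs in each library (base: 22 nt reads), mutant libraries left of wild type. miR167d reaches 339 RPM in atprmt5-2 replicate 1 and 179 RPM in atprmt5-6 replicate 1, and the other members together lie between 351 and 545 RPM.

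For the remaining 5 tested members the alleles did not lie together on 1 side of wild type. miR403-5p, the passenger strand of the guide that targets AGO2, had 43.6 and 17.2 RPM in atprmt5-2, 26.3 and 17.1 RPM in atprmt5-6, and 20.4 and 22.6 RPM in wild type. Its log2 fold changes of 0.31 and −0.01 (SE 0.44) left both alleles overlapping wild type, and the sign in atprmt5-6 turned when the values were centred on the median miRNA (0.41). miR777, in an exon of AT1G70650 outside the coding sequence, had 51.7 and 19.5 RPM in atprmt5-2, 32.2 and 27.1 RPM in atprmt5-6, and 26.0 and 27.1 RPM in wild type. Its wild-type libraries were nearly equal, while the atprmt5-2 libraries lay on either side of them, and its log2 fold changes were 0.24 in atprmt5-2 and 0.13 in atprmt5-6 (SE 0.45).

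miR840-5p, the least abundant tested member, had 14.9 and 12.6 RPM in atprmt5-2, 9.76 and 8.03 RPM in atprmt5-6, and 7.42 and 8.14 RPM in wild type. Both atprmt5-2 values exceeded the other 4, at a log2 fold change of 0.55 ± 0.33 (SE; limma adjusted p = 0.416), and it was 0.12 ± 0.33 (SE; limma adjusted p = 0.834) in atprmt5-6. miR850 ranged from 2.71 to 14.8 RPM, both ends of which were wild-type libraries, so the genotypes overlapped. miR771 ranged from 11.1 to 28.9 RPM, again with both ends in wild type. Their log2 fold changes in atprmt5-2 and atprmt5-6 were 0.34 and 0.40 (SE 0.45) for miR850 and 0.15 and −0.14 (SE 0.42) for miR771.

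The other 31 members were too low to test. They had 275 reads over the 6 libraries, with means of 0.151 to 5.82 RPM, against 10.1 RPM for the lowest tested member. Just above the limit stood miR840-5p at 10.1 and miR850 at 10.4 RPM, and just below it miR8166 at 5.82 and miR447a-3p at 5.63 RPM. Of the 31, 20 had at most 4 reads in all, and 9 were seen in a single library. The 6 copies of miR8167 share 1 sequence and together had 20 reads.

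All 4 mutant libraries were below both wild-type libraries for 3 of the untested members and above both for 0. miR848 had 2.30 and 0 RPM in atprmt5-2, 1.95 and 2.01 RPM in atprmt5-6, and 9.28 and 6.33 RPM in wild type. miR4221 had 1.15 and 2.29 RPM in atprmt5-2, 0.976 and 1.00 RPM in atprmt5-6, and 7.42 and 2.71 RPM in wild type. The third, miR8167a, was at 0 in the 4 mutant libraries and at 1.86 and 2.71 RPM in wild type, but is 1 of 6 identical copies. These are differences of a few reads and carry no test. Of the low members of known target, miR402, which targets a DNA glycosylase gene of the ROS1 family, ranged from 1.00 to 7.42 RPM with the genotypes overlapping.

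By list, 8 of 141 names of conserved families were listed at 22 nt and 4 of them tested, with median log2 fold changes of 0.28 in atprmt5-2 and −0.12 in atprmt5-6. Of 46 passenger strands 5 were listed, and 1, miR403-5p, was tested. The guides of the silencing machinery (5 names), of phase change and flowering (19) and of nutrient supply (19) had 0 members listed at 22 nt. Of the 27 patterning guides 1 was listed, miR167d. No miRNA annotated under 22 nt was listed at all. These counts thus depend on the annotated lengths in a list and are not results about its pathway. The 12 tested members annotated at 22 nt had medians of 0.24 in atprmt5-2 and −0.08 in atprmt5-6, and the 2 annotated at 24 nt −0.56 and −0.66. No member of any of these groups was called.

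Annotated miRNAs made up a small part of the 22 nt reads in every library. They were 0.0884% (95% exact binomial interval 0.0823 to 0.0949) and 0.0409% (0.0367 to 0.0453) in atprmt5-2. In atprmt5-6 they were 0.0559% (0.0514 to 0.0607) and 0.0404% (0.0365 to 0.0445), and in wild type 0.0570% (0.0508 to 0.0637) and 0.0572% (0.0529 to 0.0619). The wild-type libraries were equal within counting error and the mutant libraries lay on both sides of them. The 4 mutant libraries averaged 0.0564% ± 0.0225 (SD, n = 4) and the wild-type libraries 0.0571% ± 0.000184 (SD, n = 2). The difference of −0.000716 percentage points gave p = 0.867 in an exact two-sided permutation test, whose smallest possible p is 0.0667, and its sign turned without replicate 2 of atprmt5-2 (0.00446) or of atprmt5-6 (0.00462). Without miR167d, an alternative added after the data were seen, the difference was −0.00961 percentage points (p = 0.4, exact two-sided permutation test).

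Reads of 22 nt of any origin were 8.65% and 13.1% of the 21 to 24 nt reads in atprmt5-2, 9.91% and 13.7% in atprmt5-6, and 10.7% and 12.1% in wild type. The wild-type values lay between those of the mutants (difference −0.0692 percentage points, p = 1, exact two-sided permutation test). The sign turned without replicate 1 of atprmt5-2 (0.830) or of atprmt5-6 (0.409), or without wild-type replicate 2 (0.601). Of the 21 and 22 nt reads alone, those of 22 nt were 40.8% and 44.2% in atprmt5-2, 42.3% and 43.6% in atprmt5-6, and 48.5% and 45.6% in wild type. Here all mutant libraries were below both wild-type libraries, with a mean difference of −4.36 points, at the smallest p the design allows (exact two-sided permutation test, p = 0.0667).

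The last comparison set the 22 nt reads of a miRNA against its own 21 nt reads in the same library. This ratio depends less on what else was sequenced, but the 21 nt reads of a 22 nt miRNA are themselves shorter than the annotation. Over all miRNAs, 22 nt reads were 0.185% and 0.141% of the 21 and 22 nt miRNA reads in atprmt5-2, 0.130% and 0.132% in atprmt5-6, and 0.212% and 0.180% in wild type (difference −0.0492 percentage points, p = 0.133, exact two-sided permutation test). The denominator here is almost wholly miRNAs of 21 nt. Without miR167d the values were 0.114% and 0.121% in atprmt5-2, 0.0884% and 0.119% in atprmt5-6, and 0.186% and 0.162% in wild type. All mutant libraries then lay below both wild-type libraries (difference −0.0631 percentage points). This was the smallest p the design allows (exact two-sided permutation test, p = 0.0667). Over the members alone, chosen as a setting after the data were seen, the values were 66.9% and 66.7% in atprmt5-2, 60.4% and 63.8% in atprmt5-6, and 60.9% and 61.2% in wild type (difference 3.43 points, p = 0.267, exact two-sided permutation test). The direction of the summed value thus depended on whether the 21 nt miRNAs were counted in.

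For limma on the log2 ratio of 22 to 21 nt reads, 5 members had enough reads, at least 50 of 21 and 22 nt together on average. None was called in either allele, 0% of those tested, with 1 member in atprmt5-2 and 0 in atprmt5-6 at an unadjusted limma p under 0.05. A count model in edgeR with the 21 nt reads as offset also called 0, with 2 in atprmt5-2 and 0 in atprmt5-6 at that p. Of the 5, miR393a-5p and miR393b-5p have the same sequence, so their reads cannot be told apart and their values are not separate results. With a lower minimum of 20 reads, more members were tested and none was called in either allele. In atprmt5-2, miR472-3p (−1.66), miR845b (−0.91) and miR403-5p (−0.02) then had negative differences, and the others positive ones. Among the 5 of the main test, all differences in atprmt5-2 were positive, on a scale that any shift common to all miRNAs moves. They were 1.41 ± 1.24 for miR173-5p, 1.29 ± 0.47 for miR393a-5p, 0.97 ± 0.45 for miR163, 0.88 ± 0.35 for miR167d and 0.57 ± 0.37 for miR393b-5p (SE; limma adjusted p of 0.126 to 0.304). Leaving out wild-type replicate 2 gave 0.15 for miR173-5p, and leaving out replicate 1 of wild type gave 2.67. Without wild-type replicate 2, miR393a-5p passed in atprmt5-2 (1.85, limma adjusted p = 0.0233). Centred on the median ratio, the atprmt5-2 differences of miR163, miR167d and miR393b-5p were negative (−0.32, −0.41 and −0.72). This centring subtracts the median of the same 5 ratios in each library. It therefore cannot show whether the 5 differences share a sign. In atprmt5-6 the differences ran from −0.56 for miR393b-5p to 1.02 for miR173-5p, with a smallest limma adjusted p of 0.580.

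For miR167d the 22 nt form was 62.0% (95% exact binomial interval 57.4 to 66.4) and 56.2% (45.3 to 66.7) of its 21 and 22 nt reads in atprmt5-2. It was 54.8% (49.3 to 60.2) and 49.4% (38.1 to 60.7) in atprmt5-6, and 47.0% (35.9 to 58.3) and 40.9% (33.1 to 49.1) in wild type. All 4 mutant libraries were above both wild-type libraries, although the miR167d level itself was not. The intervals of replicate 1 of each allele did not overlap that of wild-type replicate 2 but did overlap that of wild-type replicate 1. Those of replicate 2 of each allele overlapped both wild-type intervals. miR393, copies summed, was 77.2% and 80.7% of 22 nt in atprmt5-2, 59.8% and 62.7% in atprmt5-6, and 58.7% and 72.3% in wild type. For miR393 atprmt5-2 stood above both wild-type libraries and atprmt5-6 between them. miR163 was 63.0% and 66.7% of 22 nt in atprmt5-2, 61.0% and 47.6% in atprmt5-6, and 41.3% and 54.8% in wild type.

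miR173-5p was almost wholly of 22 nt, at 93.8% to 100% over the 6 libraries, and its ratio rested on at most 4 reads of 21 nt in a library. The 22 nt form was 84.0% to 100% of miR472-3p and 82.4% to 100% of miR777. miR403-5p was divided nearly evenly between the lengths, at 50% to 56.8%. The plot of 22 nt shares shows these levels for all tested members.

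**Figure D5:**
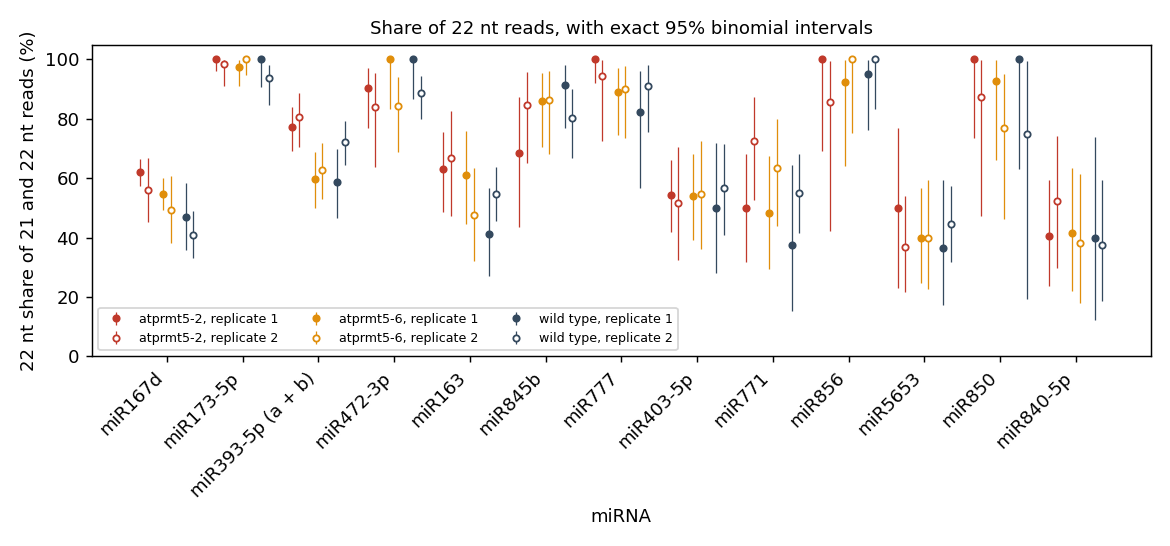
Share of the 22 nt form among the 21 and 22 nt reads, in percent, of tested miRNAs in each library, with atprmt5-2 and atprmt5-6 before wild type. miR173-5p lies at 93.8% to 100%, and miR167d at 49.4% to 62.0% in the mutant libraries, against 40.9% and 47.0% in wild type.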

How the data were processed

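Small RNA of closed buds was sequenced, and for each library and read length the authors deposited a table of RPM values per miRNA. Per the submitters' processing notes, Trimmomatic 0.36, Bowtie2, SAMtools 1.9 and the build TAIR10 were used, with no order or settings given. The RPM are whole multiples of 1 read, so reads and denominators were recovered. The 22 nt denominators run from 538878 to 1106045 reads, and depth limits members of a few reads. The 23 nt table of wild-type replicate 1 repeats its 21 nt reads, so only its denominator was used, in the scaling to 21 to 24 nt reads.

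Members and lists were chosen with earlier results of these data known. Members with a mean of at least 10 RPM were tested with limma 3.58.1 in R 4.3.3 on log2(RPM + 5), 3 genotypes in 1 fit of 6 libraries with 3 residual degrees of freedom and an intensity trend, adjusted by Benjamini-Hochberg over all tested. The ratio of 22 to 21 nt reads, with 0.5 reads added to each, was tested likewise. It was restricted to miRNAs with 22 nt reads after the tables were seen, a departure from the design. Values per library were compared by exact permutation of 4 mutant against 2 wild-type libraries. Alternatives, on the recovered counts, used edgeR 4.0.16 and DESeq2 1.42.0. The fits were also run on simulated reads with a preset spread, which need not match the spread between these replicates. No result here rests on those runs. Named are the 6 largest fold changes per direction, the 10 most abundant in wild type, every tested miRNA annotated at 22 nt, and a set of guides. miR829-3p.1, miR848, miR4221, miR8167a, miR8166, miR447a-3p and miR402 were named after their values were seen. Sequences and positions are from RefSeq TAIR10.1.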

Additional observations from a re-analysis of the deposited data

How the results depend on the processing

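With 2 libraries a genotype and 22 nt reads in small numbers, a single library or the scaling could turn values near 0, and unless stated the cause was not tested. With all 12 libraries in the fit, where the AGO1 libraries entered only the estimate of spread, 2 members were called in atprmt5-2 (limma adjusted p = 0.0481). Leaving out 1 library at a time gave 0 to 1 calls for RPM in atprmt5-2 (miR856, without wild-type replicate 2) and 0 to 1 for the ratio in atprmt5-2 (miR393a-5p, without wild-type replicate 2), with 0 for RPM and the ratio in atprmt5-6 against wild type and for RPM between the alleles. The ratio between the alleles, not compared above, had 0 calls in the same fit, but miR393a-5p (-1.31) and miR393b-5p (-1.13), of identical sequence, were called in atprmt5-6 against atprmt5-2 with either 1 of the wild-type libraries left out (limma adjusted p = 0.0373 for each). Leaving out 1 library moved the mutant minus wild-type difference of the miRNA share of 22 nt reads between -0.0114 and 0.00462 percentage points, and that of the 22 nt share of 21 to 24 nt reads between -0.850 and 0.830, with opposite sign also at 0.00446, 0.601 and 0.409. Over listed members alone the 22 nt share of miRNA reads differed by 3.43 points, and without miR167d by -0.0631 over all miRNAs. Centring each library on the median tested miRNA takes out any shift common to them. It moved the median log2 fold change in atprmt5-6 to 0.23. It also turned miR393b-5p in atprmt5-2 (0.087) and miR393a-5p (0.18), miR403-5p (0.41), miR771 (0.27) and miR5653 (0.029) in atprmt5-6. Scaling to miRNA reads turned miR403-5p (0.20) and miR771 (0.074) in atprmt5-6, and scaling to 21 to 24 nt reads turned miR403-5p there (0.0098). By edgeR with the authors' denominators, miR393b-5p (0.017) and miR771 (-0.022) turned in atprmt5-2 and miR403-5p (0.0028) in atprmt5-6. By edgeR with TMM, miR771 turned in atprmt5-2 (-0.10) and miR403-5p in atprmt5-6 (0.19), and by DESeq2 miR403-5p did (0.20). Centring on the median ratio turned miR163 (-0.32), miR167d (-0.41) and miR393b-5p (-0.72) in atprmt5-2. As it subtracts the median of the tested ratios themselves, it cannot show whether they share a sign. Leaving out 1 library gave in atprmt5-2 -0.15 to 2.31 for miR167d, -0.051 to 0.53 for miR393a-5p, -0.31 to 0.29 for miR393b-5p, -0.37 to 0.84 for miR777, -0.26 to 0.88 for miR403-5p, -0.38 to 0.69 for miR771 and -0.34 to 1.02 for miR850. In atprmt5-6 it gave -0.62 to 1.41 for miR167d, -0.26 to 0.24 for miR403-5p, -0.68 to 0.39 for miR771 and -0.28 to 1.08 for miR850, and for the ratio -0.031 to 0.74 for miR163, -0.24 to 2.28 for miR173-5p and -0.58 to 0.54 for miR393a-5p. The ratios in atprmt5-2 kept their sign without any 1 library, at 0.15 to 2.67 for miR173-5p, 0.73 to 1.85 for miR393a-5p, 0.58 to 1.35 for miR163, 0.70 to 1.06 for miR167d and 0.27 to 0.87 for miR393b-5p. The log2 fold changes of miR856, miR845b, miR472-3p and miR163 kept their sign in every alternative run, at -1.65 to -0.68, -1.39 to -0.76, -1.13 to -0.42 and -0.92 to -0.20 in atprmt5-2 and -1.28 to -0.41, -0.98 to -0.26, -1.37 to -0.66 and -1.29 to -0.51 in atprmt5-6. Equal replicate numbers are not stated to mark shared material; over 14 miRNAs, deviations of same-numbered libraries correlated at 0.63 between the alleles and at 0.18 and 0.26 between wild type and atprmt5-2 or atprmt5-6. With a replicate block, limma called 0 members for RPM (2 and 1 at an unadjusted p under 0.05) and 1 for the ratio in each allele, miR167d (adjusted p = 0.00615 in atprmt5-2 and 0.0311 in atprmt5-6), and it changed no other call against wild type. Between the alleles it called miR167d (-0.41) and miR393b-5p (-1.13) for the ratio (limma adjusted p = 0.0223 for each). A minimum of 50 RPM left 2 members to test, and the ratio with a higher minimum of reads was not run, since 1 miRNA was left. Depth limits the 31 untested members.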
